A study of Mus musculus with 6 samples.

Results

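The heat-shock chaperones described here are 10 genes chosen by name: the cytosolic chaperones Hsp90aa1, Hsp90ab1, Hspa8, Hspa1a, Hspa1b, Hsph1, Dnajb1 and Dnaja1, and the mitochondrial pair Hspd1 and Hspe1. Every probe whose platform annotation carries one of these symbols was taken, which gave 18 of the 45281 probes and 9 of the 10 genes. No probe was named Hsp90ab1 in the annotation used, and that gene was not analysed here. The RNA came from CD11b-positive, Ly6G-negative cells, a gate for macrophages and monocytes that is meant to leave out neutrophils, sorted from infarcted hearts of outbred ICR mice. Infarction followed ligation of the left anterior descending artery on postnatal day 1 (P1) or 14 (P14), cells were taken 3 days later, and each age had 3 arrays of mixed-sex material. All mice had an infarct, so neither age has an uninjured control here. Whether the arrays of an age hold separate animals is not stated in the labels, so a p-value here reflects only how far these 3 and 3 samples scatter, and that scatter may be technical.

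Heat-shock chaperones bind proteins that are newly made, unfolded or damaged and use ATP to help them fold. In the cytosol, J-domain proteins hand such clients to HSP70 proteins, nucleotide exchange factors such as HSP110 release them, and HSP90 finishes a subset of signalling proteins and receptors. Some of these genes are transcribed at all times, whereas others rise when heat-shock factor 1 binds its elements, runs of the pentamer NGAAN in alternating orientation, near their start sites. The members were therefore placed in an inducible class (Hspa1a, Hspa1b, Hsph1, Dnajb1, Hsp90aa1), a constitutive class (Hspa8, Hsp90ab1, Dnaja1) and a mitochondrial class (Hspd1, Hspe1). The split is one of degree, since Dnaja1 and the mitochondrial pair are also known to respond to heat.

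The values are normalized probe intensities that share a median of 121 on all arrays. A probe was counted as above background where it exceeded an intensity of 126 on at least 3 of the 6 arrays, and 16 of the 18 heat-shock probes did. All 9 genes with a probe passed in this way, although Dnaja1 passed narrowly. Each gene is represented by its brightest probe, differences are log2 intensity in P1 minus P14, and calls are limma's, two-sided, at a Benjamini-Hochberg adjusted p under 0.05 over all 10507 genes tested.

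3 of the 9 measured members were lower in P1 than in P14 and 0 were higher, and all 3 belong to the inducible class: Hsp90aa1, Hsph1 and Dnajb1. Over all genes tested, 9.62% were called lower in P1, 10.4% higher and 20.0% either way. In 38.5% of all genes tested, called or not, the arrays of the 2 ages did not overlap. All 5 inducible members had a negative log2 fold change, against 48.2% of all genes tested, and their median was -0.46, against 0.0082 over all genes. That median is the value of Hspa1b, which was not called and was -0.11 without P14 replicate 3. Hspa1a and Hspa1b are near-identical copies whose probes may read both, so the 5 signs may not be independent. Of the 2 constitutive and 2 mitochondrial members measured, 0 passed limma's test with the brightest probe, and 0 had an unadjusted p under 0.05. In bulk RNA of sorted cells, fewer cells that express a gene and less RNA per cell cannot be told apart.

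**Figure D1:**
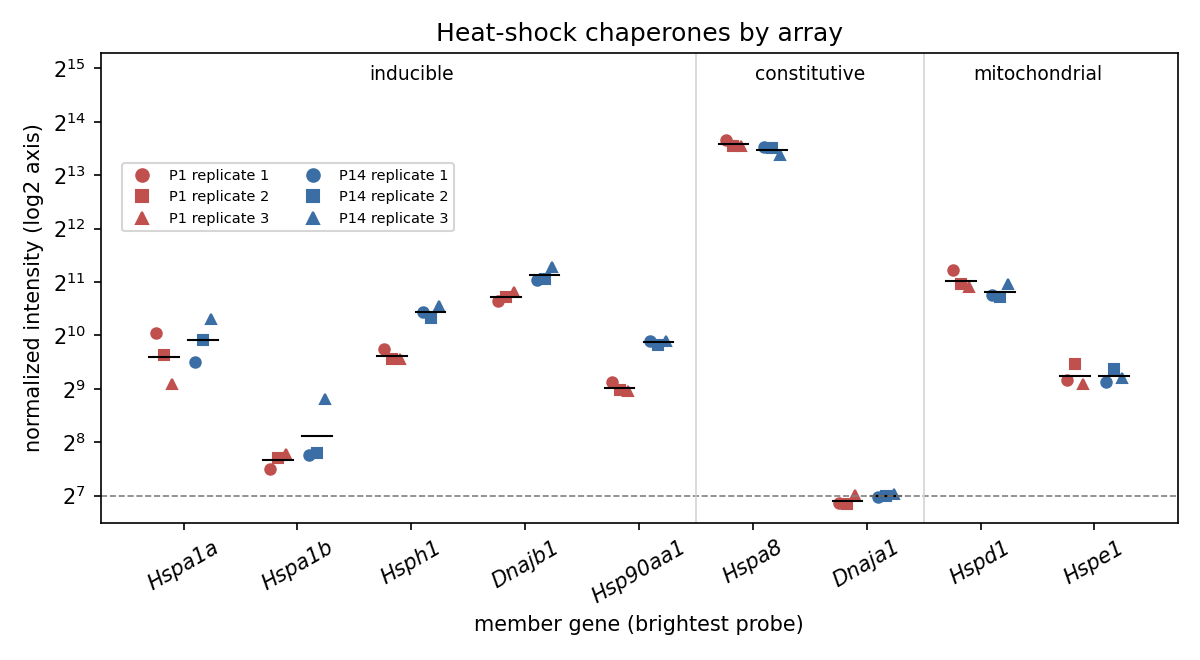
Normalized intensity (log2 axis) of the brightest probe of each of the 9 measured members on the 6 arrays, with P1 in red and P14 in blue, symbols for replicate numbers, short lines for group means of the log2 values and a dashed line for the background floor. Hsph1, Dnajb1, Hsp90aa1 and Hspa8 have no overlap between the ages, as in 38.5% of all genes tested. Hspa1b is set apart on P14 replicate 3 alone, and Dnaja1 lies at the floor.

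Hsp90aa1 encodes HSP90 alpha, the stress-inducible cytosolic HSP90. Its brightest probe read 559, 502 and 501 on P1 replicates 1, 2 and 3, and 951, 904 and 949 on P14 replicates 1, 2 and 3. The lowest P14 array was well above the highest P1 array, and the 3 arrays of each age lay close together. The gene was 1.80-fold lower in P1 (-0.85 ± 0.0722 on the log2 scale, SE, 3 arrays per age, limma adjusted p = 0.00137). A second probe above the floor did not show this difference: it read 195, 146 and 161 in P1 and 150, 170 and 159 in P14, with the ages overlapping (0.063 ± 0.110, limma adjusted p = 0.759 in a fit over all probes above the floor, of which 16.5% were called). Averaged over both probes the log2 fold change was -0.39 (adjusted p = 0.0185). The remaining probe exceeded the floor on 1 P1 array and on 0 P14 arrays.

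Hsph1 encodes HSP110, which exchanges nucleotide on HSP70 and helps to dissolve protein aggregates. Its only probe read 863, 752 and 752 on the P1 arrays and 1394, 1289 and 1496 on the P14 arrays. The groups did not overlap, and the gap between them exceeded the range within either. Hsph1 was 1.77-fold lower in P1 (-0.82 ± 0.0876, SE, n = 3 per group, adjusted p = 0.00196).

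Dnajb1 encodes the main stress-inducible J-domain protein, which stimulates the ATPase of HSP70. Its only probe read 1598, 1691 and 1789 in P1 and 2093, 2120 and 2494 in P14. The ages were again separate, with the highest value on P14 replicate 3. Dnajb1 was 1.32-fold lower in P1 (-0.40 ± 0.0894, SE, n = 3 per group, adjusted p = 0.020), a call that was lost without P1 replicate 1 (-0.36, adjusted p = 0.0565) or without P1 replicate 2 (-0.40, adjusted p = 0.0511). The calls of Hsp90aa1 and Hsph1 were kept without any single array, with a highest adjusted p of 0.00891 and 0.0115.

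**Figure D2:**
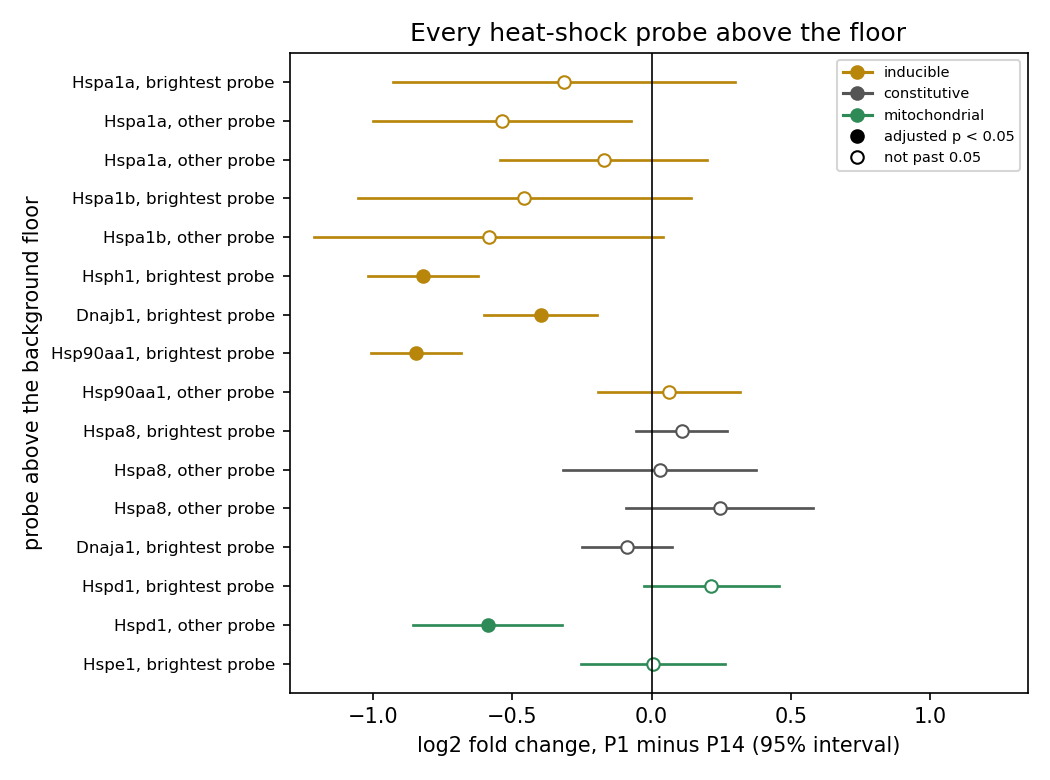
Log2 fold change (P1 minus P14, horizontal axis) with its 95% interval for each of the 16 heat-shock probes above the background floor, from 1 fit over all probes above the floor, with filled points where the adjusted p was under 0.05. The 8 inducible probes other than the second Hsp90aa1 probe all lie below 0, and the 2 Hspd1 probes lie on opposite sides of 0.

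Hspa1a and Hspa1b encode the stress-inducible HSP70. They are neighbouring, near-identical copies whose probes may read both transcripts, so values for either copy are uncertain. The 250 bases before their start sites were identical at 247 positions in RefSeq sequence of build GRCm38.p6. A stretch of each is shown because it holds their single match to the shortest element searched, GAANNTTC, which is in capitals. Hspa1a is shown at chr17:34972227-34972286, minus strand, and Hspa1b at chr17:34959309-34959368, minus strand, each from base -130 to base -71 of the start site.
Hspa1a: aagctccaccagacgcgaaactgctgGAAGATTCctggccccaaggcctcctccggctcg
Hspa1b: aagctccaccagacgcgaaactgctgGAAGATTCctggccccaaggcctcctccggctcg
The 60 bases printed are the same in both copies, and the match begins at base -104 in each.

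The brightest Hspa1a probe read 1061, 796 and 542 on P1 replicates 1, 2 and 3, and 724, 959 and 1270 on P14 replicates 1, 2 and 3. The ages overlapped, with the lowest value in P1 and the highest on P14 replicate 3. Its log2 fold change was -0.32 ± 0.266 (SE, n = 3 per group, adjusted p = 0.461), with a 95% interval from -0.93 to 0.30. The brightest Hspa1b probe read 181, 210 and 219 in P1 and 216, 223 and 449 in P14. Here P14 replicates 1 and 2 lay next to the highest P1 array, and P14 replicate 3 stood alone. Its log2 fold change was -0.46 ± 0.259 (adjusted p = 0.257), with an interval from -1.06 to 0.14.

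The other 3 probes of this pair had the same high array. The second Hspa1b probe read 185, 253 and 422 on P14 replicates 1, 2 and 3, against 164 to 219 in P1. The second Hspa1a probe read 201, 222 and 360 in P14, against 164 to 193 in P1, and so did not overlap, differing by -0.54 on the log2 scale (limma adjusted p = 0.108 in the fit over probes). The dimmest Hspa1a probe read 152, 163 and 233 in P14 and 140 to 171 in P1. P14 replicate 3 was the highest of the 6 arrays on 5 of 5 probes. Without it the log2 fold changes of Hspa1a and Hspa1b were both -0.11 (adjusted p = 0.814 and 0.485), those of Hsph1 and Dnajb1 were -0.77 and -0.32, and both of the latter kept their calls. Hspa1a depended on other arrays too: its log2 fold change was -0.061 without P1 replicate 3 (adjusted p = 0.904), -0.55 without P1 replicate 1 and -0.52 without P14 replicate 1.

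**Figure D3:**
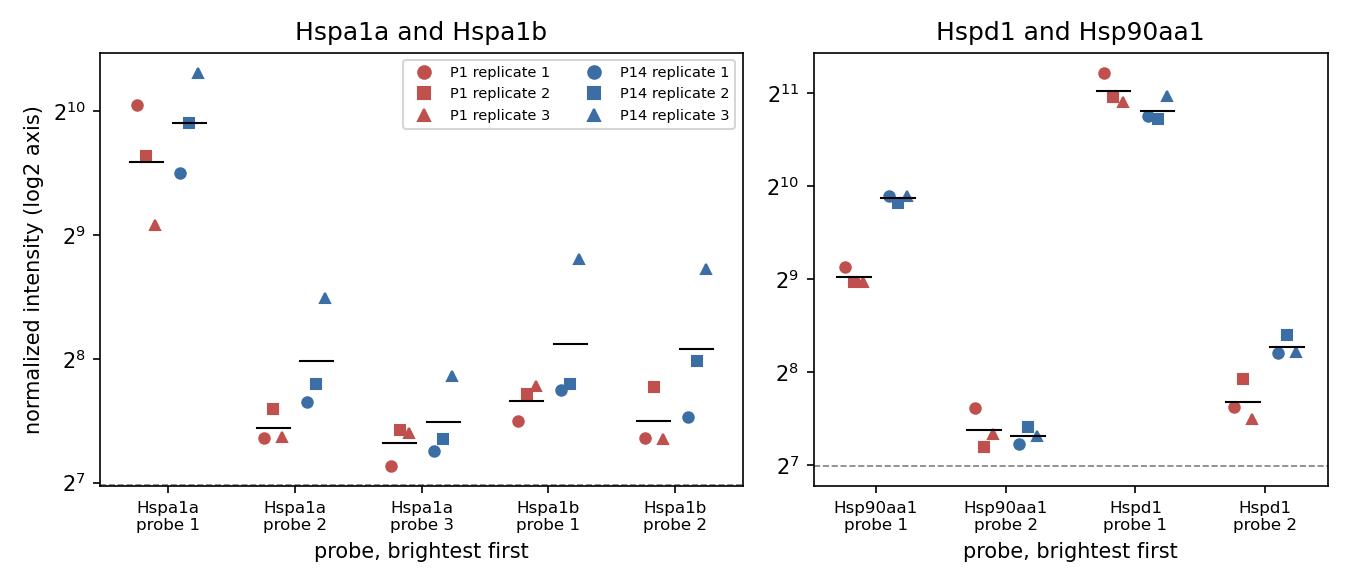
Normalized intensity (log2 axis) by array for the genes with more than 1 probe whose probes differ, with probes ordered by brightness within a gene, symbols for replicates, short lines for group means of the log2 values and a dashed line for the floor. On the left P14 replicate 3 (blue triangle) is the highest array on all 5 Hspa1a and Hspa1b probes, and on the right the second probes of Hspd1 and Hsp90aa1 do not follow the first.

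Hspa8 encodes HSC70, the constitutive HSP70 of the cytosol, which also carries proteins into lysosomes and strips clathrin from vesicles. Its brightest probe read 12860, 11895 and 11918 in P1 and 11818, 11604 and 10612 in P14. The ages did not overlap, as in 38.5% of all genes tested, but the gap was small against the spread. The log2 fold change was 0.11 ± 0.0735 (SE, n = 3 per group, adjusted p = 0.349), with a 95% interval from -0.061 to 0.28. The interval leaves out a difference of the size measured for Hsph1 or Hsp90aa1. On the other 2 probes the ages differed by 0.029 (adjusted p = 0.928) and 0.25 (adjusted p = 0.300), on the log2 scale, with overlap between the ages on both.

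Dnaja1 encodes a J-domain partner of HSC70. Its brighter probe read 116, 115 and 130 in P1 and 125, 127 and 130 in P14, so that 1 P1 array and 2 P14 arrays exceeded the floor. Its log2 fold change of -0.088 ± 0.0725 (adjusted p = 0.451) lies at background. The second Dnaja1 probe was below the floor on all 6 arrays. With no probe for Hsp90ab1 either, the constitutive class rests on Hspa8.

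Hspd1 encodes HSP60, the barrel-shaped chaperonin of mitochondria, and Hspe1 encodes HSP10, the lid that closes it. The genes lie head to head on chromosome 1. In GRCm38.p6 the Hspe1 start at position 55088148 on the plus strand and one of the Hspd1 starts, at 55087932 on the minus strand, flank a common stretch, and another annotated Hspd1 start lies beyond that of Hspe1. Part of that stretch, at chr1:55088053-55088082 on the plus strand, is shown because it holds 4 heat-shock pentamers in a row, in capitals.
Hspe1 and Hspd1: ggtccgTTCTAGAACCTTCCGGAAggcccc
The run covers bases -89 to -72 of the Hspe1 start and bases -144 to -127 of that Hspd1 start, and it contains overlapping matches to GAANNTTCNNGAA and to its reverse complement TTCNNGAANNTTC.

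The brighter Hspd1 probe read 2384, 1989 and 1912 in P1 and 1725, 1683 and 1997 in P14. The ages overlapped, since P14 replicate 3 exceeded 2 of the P1 arrays. Its log2 fold change was 0.22 ± 0.107 (SE, n = 3 per group, adjusted p = 0.197). The second probe read 197, 243 and 180 in P1 and 294, 336 and 296 in P14, without overlap, and was 1.5-fold lower in P1 (-0.59 ± 0.116, limma adjusted p = 0.0150 in the fit over probes). The 2 probes of Hspd1 thus gave opposite signs, and the mean of both gave -0.19 (adjusted p = 0.147). Which transcript each probe reads was not tested. The only Hspe1 probe read 571, 708 and 544 in P1 and 563, 659 and 586 in P14, with full overlap. Its log2 fold change was 0.0059 ± 0.113 (adjusted p = 0.980), with a 95% interval from -0.25 to 0.27.

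Heat-shock elements were searched in the RefSeq promoter windows of GRCm38.p6, which run from 250 bases before each annotated start to 50 bases after it and were at hand for 7 of the 10 members. The longer motif, GAANNTTCNNGAA on either strand, was found in Hsph1, Hspd1 and Hspe1, against 0.662% of 27025 genes and 4.65% of 43 genes of the wider chaperone network described below. The shorter motifs, GAANNTTC or TTCNNGAA, read the same on both strands and make up the longer one. They were found in 6 of the 7 members, against 17.0% of genes and 30.2% of the network genes. Neither motif was found in the 2 windows of Dnajb1. These member counts are not independent, since Hspd1 and Hspe1 share the same run and the stretches printed for Hspa1a and Hspa1b are identical. The longer Hsph1 match lies 16 to 28 bases after the downstream of its 2 listed starts, at chr5:149636280-149636308 on the minus strand with its flanks, and is shown with the match in capitals for comparison with the mitochondrial run.
Hsph1: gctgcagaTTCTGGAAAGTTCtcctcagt
Of the 3 genes with the longer motif, Hsph1 was lower in P1 and Hspe1 and the brighter Hspd1 probe were not called. The second Hspd1 probe was lower in P1 (-0.59, limma adjusted p = 0.0150 in the fit over probes). A match is a description of these letters and not a measured binding site.

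The inducible and constitutive classes were compared on each array as the mean log2 deviation of a gene from its own mean over the 6 arrays. For the 5 inducible members the mean deviation was -0.19, -0.29 and -0.37 on P1 replicates 1, 2 and 3, and 0.12, 0.17 and 0.56 on P14 replicates 1, 2 and 3. The ages did not overlap, and P14 replicate 3 was set apart at the top. For the 2 constitutive members it lay between -0.047 and 0.043, but that mean joins Hspa8 with the Dnaja1 probe at background, and these moved in opposite directions on the outer arrays. Hspa8 alone deviated by 0.13 on P1 replicate 1 and by -0.15 on P14 replicate 3, where Dnaja1 deviated by -0.091 and 0.071. The narrow range of the mean is therefore no measure of how steady constitutive chaperones were. For the 2 mitochondrial members it ranged from -0.082 to 0.14 in P1 and from -0.13 to 0.0030 in P14. The inducible minus constitutive difference was -0.21, -0.24 and -0.41 in P1 and 0.10, 0.16 and 0.60 in P14. Its mean was -0.29 ± 0.109 in P1 and 0.29 ± 0.271 in P14 (SD, n = 3 each), a shift of -0.58 between the ages. With Hspa8 as the only constitutive member, an alternative chosen after seeing the data, the shift was -0.68, and without P14 replicate 3 it was -0.49. With both constitutive genes held in the class, also chosen after seeing the data, the shift of -0.58 became -0.42 without that array. No p is given for these means, because the members were chosen.

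**Figure D4:**
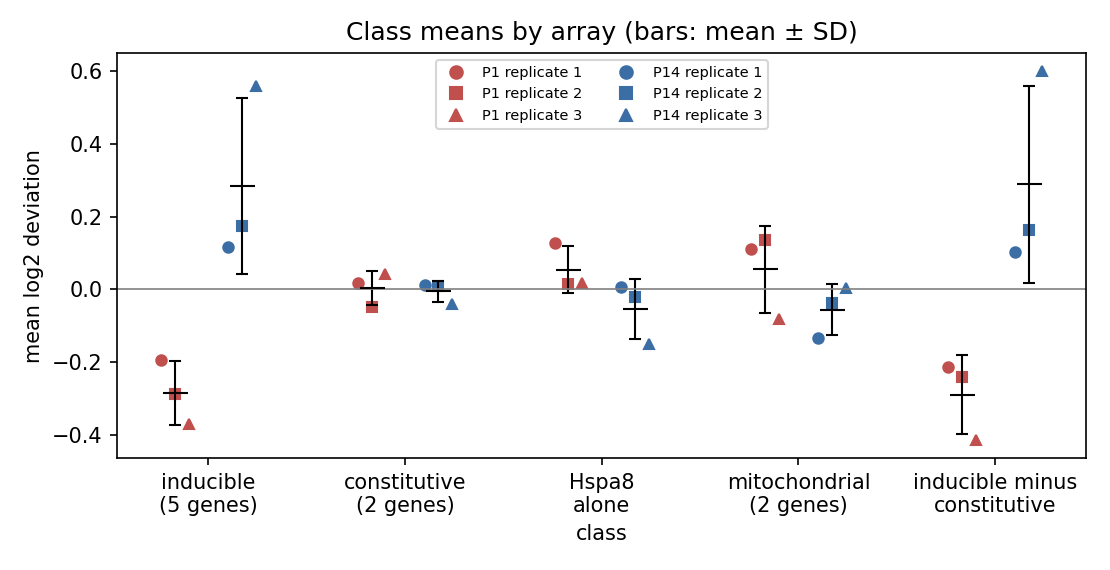
Mean log2 deviation from each gene's 6-array mean (vertical axis) by class, and for Hspa8 alone, on each array, with black bars for the mean and SD of each age. The inducible class separates the ages, from -0.37 to -0.19 in P1 and from 0.12 to 0.56 in P14, and Hspa8 alone spans -0.15 to 0.13, wider than the constitutive mean that joins it with the Dnaja1 probe at background.

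The wider chaperone network was followed in 53 further genes of known role, 48 of which were tested: heat-shock factors, HSP70 relatives, J-domain proteins, small heat-shock proteins, co-chaperones, mitochondrial partners, cytosolic chaperonin subunits and a collagen chaperone. In P1, 14 were lower and 2 higher, or 29.2% and 4.17%, beside 9.62% and 10.4% of all genes tested. The median log2 fold change was -0.047, against 0.0082 over all genes, and 30 of the 48 were negative (62.5%, against 48.2% of all genes). The number of calls depended on single arrays. It was 9 without P1 replicate 2, 5 without P1 replicate 3, 7 without P14 replicate 1 and 8 without P14 replicate 2, where 2105 calls over all genes likewise became 1467, 1038, 1235 and 1205. The 2 higher calls became 0 with no filter on dim probes, on leaving out P1 replicate 3, and on leaving out replicate 1 or 2 of P14, where all remaining network calls were lower in P1.

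**Figure D5:**
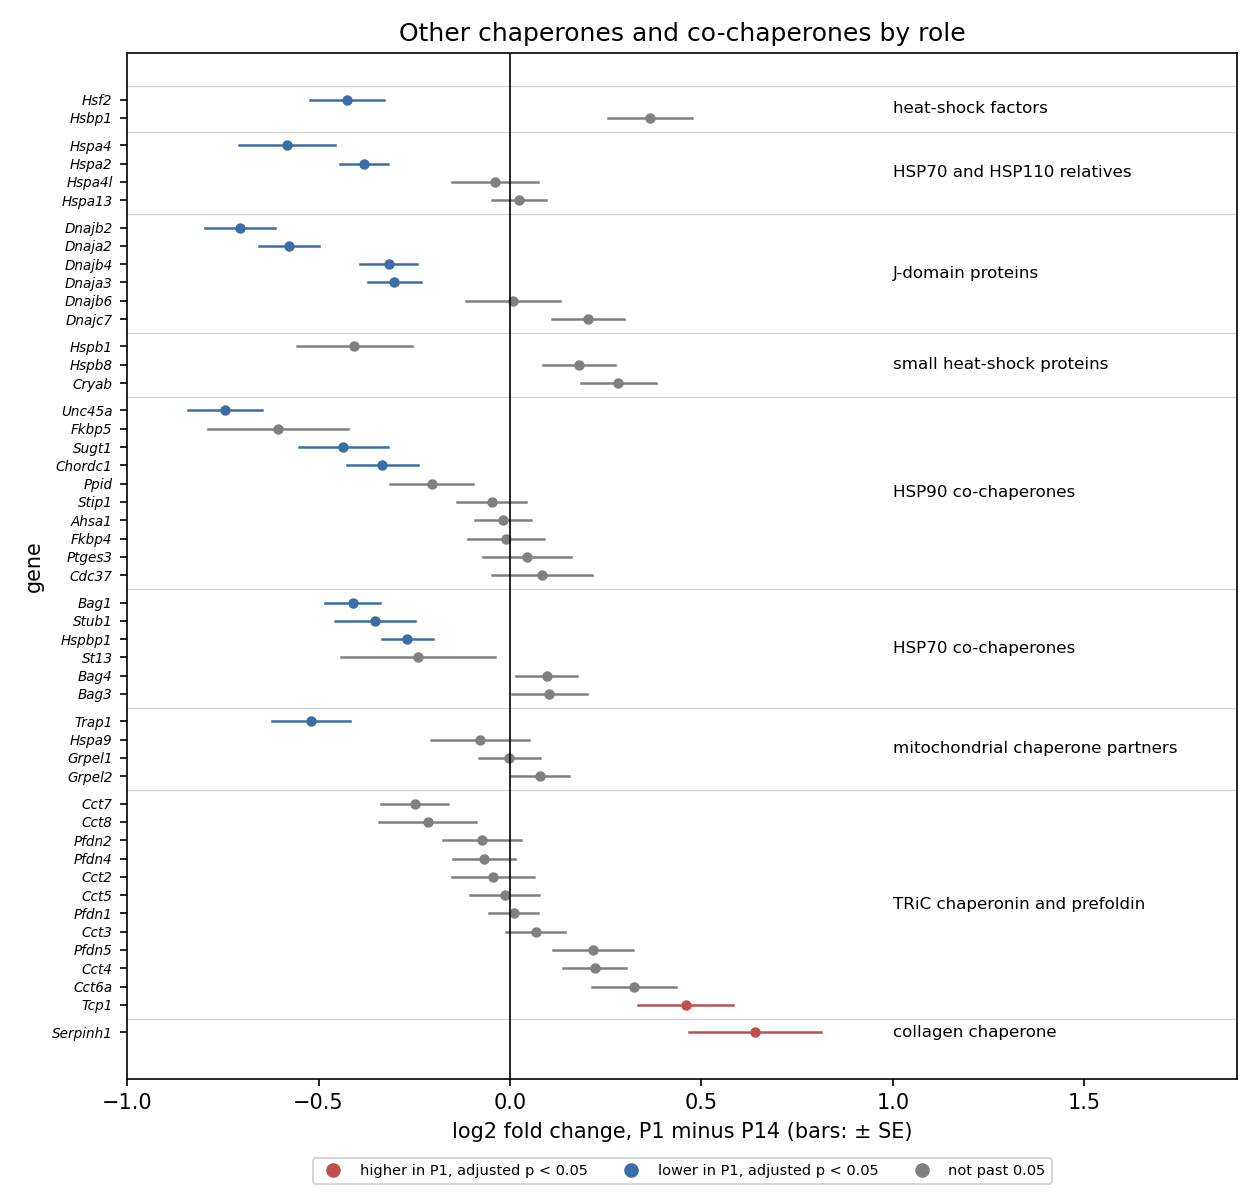
Log2 fold change (P1 minus P14, horizontal axis) with its SE for the 48 tested genes of the chaperone network, grouped by role, in blue where lower and in red where higher in P1 at an adjusted p under 0.05. The 14 lower genes fall among factors, HSP70 relatives, J-domain proteins, co-chaperones and mitochondrial partners, and the 2 higher ones are Tcp1 and Serpinh1.

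J-domain proteins, which select clients for HSP70, had 4 of 6 tested genes lower in P1 (66.7%, against 9.62% of all genes tested) and 0 higher. Dnajb2, which passes clients on to degradation, read 236, 239 and 223 in P1 and 378, 339 and 424 in P14 (1.63-fold lower, -0.71 ± 0.0913, adjusted p = 0.00324). Dnaja2, a partner of HSC70, read 216, 202 and 218 in P1 and 320, 339 and 291 in P14 (1.49-fold lower, -0.58 ± 0.0788, adjusted p = 0.00396). The ages did not overlap on either gene, and both calls were kept without any single array. With the mean of its probes Dnaja2 gave -0.33 (adjusted p = 0.0127). Dnajb4 (-0.32, adjusted p = 0.0237) and the mitochondrial Dnaja3 (-0.30, adjusted p = 0.0221) were also lower. Those 2 calls were lost on removal of 5 and 4 of the 6 arrays in turn, with the highest adjusted p without P1 replicate 3 (0.0845 and 0.0715), and that of Dnaja3 also with the mean of its probes (0.0789). Dnajb4 is dim, reading 131 to 152 in P1 and 173 to 181 in P14 against a floor of 126.

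Among HSP70 and HSP110 relatives 2 of 4 tested genes were lower (50%, against 9.62% of all genes tested) and 0 higher. Hspa4, an HSP110 relative, read 233, 199 and 222 in P1 and 350, 269 and 367 in P14 (-0.58 ± 0.125, adjusted p = 0.0172, and 0.0585 without P14 replicate 1, with the call also lost without P1 replicate 2 or 3). Hspa2, an HSP70 best known from the testis, read 361, 345 and 344 in P1 and 451, 451 and 466 in P14 (-0.38 ± 0.0625, adjusted p = 0.00690). Neither gene overlapped between the ages. Of the heat-shock factors and their binding protein, 1 of 2 tested was lower: Hsf2 read 125, 162 and 142 in P1 and 191, 192 and 190 in P14 (-0.43 ± 0.0968, adjusted p = 0.0208). Hsf2 is dim, above the floor on 2 of 3 P1 arrays. It lost its call without P1 replicate 3 (0.0679) and without P14 replicate 1 or 2. The binding protein Hsbp1, named here after its values were seen, went the opposite way without overlap (0.37 ± 0.110, adjusted p = 0.0527). No probe was named Hsf1 in the annotation used.

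Of 10 HSP90 co-chaperones 3 were lower (30%, against 9.62% of all genes tested) and 0 higher. Unc45a, which brings HSP90 to myosin, read 873, 763 and 875 in P1 and 1244, 1500 and 1466 in P14 (1.67-fold lower, -0.74 ± 0.0967, adjusted p = 0.00331). The groups were far apart, and the call was kept without any single array, while the mean of its probes gave -0.39 (adjusted p = 0.00875). Sugt1, a partner of HSP90 on immune receptors (-0.44, adjusted p = 0.0365), and Chordc1, an HSP90-binding protein (-0.33, adjusted p = 0.0412), were lower by less. Sugt1 is dim, reading 152, 130 and 130 in P1 and 174, 167 and 219 in P14 against a floor of 126. Its log2 fold change was -0.64 with normexp background correction, so its size depends on background. The call of Sugt1 was lost without any 1 of 4 arrays and that of Chordc1 without any 1 of 6, with the highest adjusted p without P1 replicate 3 (0.114) and without P14 replicate 3 (0.0952), and both were lost with no filter on dim probes (0.0621 and 0.0562).

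Of 6 HSP70 co-chaperones 3 were lower (50%, against 9.62% of all genes tested) and 0 higher. Bag1, a nucleotide exchange factor of HSP70, read 5850, 6536 and 6131 in P1 and 8501, 8279 and 7826 in P14, with no overlap (1.33-fold lower, -0.41 ± 0.0724, adjusted p = 0.00880). Hspbp1, another exchange factor (-0.27, adjusted p = 0.0271), and Stub1, the ubiquitin ligase CHIP (-0.35, adjusted p = 0.0490), were also lower. Each of these 2 calls was lost without any 1 of 5 arrays, with the highest adjusted p without P1 replicate 3 for Hspbp1 (0.0979) and without P14 replicate 2 for Stub1 (0.125). That of Hspbp1 was also lost with trend and robust eBayes (0.0606), and that of Stub1 with the mean of probes (0.173).

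Trap1, the HSP90 of mitochondria, was the 1 of 4 mitochondrial partners that passed (25%, near the 20.0% of all genes called either way). It read 1075, 863 and 874 in P1 and 1237, 1417 and 1364 in P14, without overlap (1.43-fold lower, -0.52 ± 0.103, adjusted p = 0.0131, and 0.0502 without P1 replicate 3). Of 3 small heat-shock proteins 0 passed limma's test, and 2 had an unadjusted p under 0.05, Hspb1 and, in the opposite direction, Cryab (0.28 ± 0.0982, adjusted p = 0.0801), which is named here after its values were seen. Hspb1, the HSP27 homologue, differed by -0.41 ± 0.150 (adjusted p = 0.0958, and -0.22 without P1 replicate 1) and Hspb8, a partner of Bag3, by 0.18 ± 0.0940 (adjusted p = 0.222).

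The cytosolic chaperonin TRiC and prefoldin, which fold actin and tubulin, had 0 lower and 1 higher of 12 tested genes. The 8.33% higher was near the 10.4% of all genes tested. Tcp1, a TRiC subunit, read 1723, 1386 and 1989 in P1 and 1185, 1268 and 1216 in P14 (0.46 ± 0.124, adjusted p = 0.0371). It was called no longer without any 1 of 5 arrays, with the highest adjusted p without P14 replicate 1 (0.101), nor with no filter on dim probes (0.0657) or with the mean of its probes (0.16, adjusted p = 0.208). Serpinh1, the collagen chaperone HSP47, read 978, 1616 and 1094 in P1 and 714, 826 and 775 in P14 (0.64 ± 0.172, adjusted p = 0.0364). It lost its call without any 1 of 4 arrays, with the highest adjusted p without P14 replicate 1 (0.104), and with no filter on dim probes (0.0732). The array highest in Serpinh1, P1 replicate 2, was also the highest in the summed fibroblast markers (4041). That sum was 2602 and 3303 on P1 replicates 1 and 3 and 2577 to 2841 in P14. Without P1 replicate 2 Serpinh1 was still called (0.43, adjusted p = 0.0339). The part of fibroblasts in the Serpinh1 difference was not tested.

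Chaperones of the endoplasmic reticulum had 2 of 10 tested genes lower and 0 higher in P1. The 20% called equals the share of all genes tested called either way (20.0%, with 9.62% lower and 10.4% higher). Their median log2 fold change was -0.18, against 0.0082 over all genes. The 2 called genes were the disulphide isomerase Pdia6 (-0.59 ± 0.0905, adjusted p = 0.00554) and the J-domain protein Dnajc3 (-0.51 ± 0.0767, adjusted p = 0.00532). Neither overlapped between the ages, which also held for 38.5% of all genes tested. With the mean of its probes Pdia6 gave -0.35 (adjusted p = 0.0183). Immediate early genes, which cells can switch on during tissue dissociation, had 3 higher and 1 lower of 17 tested. The 23.5% called was near the 20.0% of all genes tested, and a part of dissociation was not tested. Klf2 (0.87 ± 0.168, adjusted p = 0.0125), Junb (0.34 ± 0.0685, adjusted p = 0.0136) and Zfp36 (0.30 ± 0.0678, adjusted p = 0.020) were higher in P1, and Klf4 (-0.66 ± 0.108, adjusted p = 0.00690) was lower. Junb lost its call without P1 replicate 3 (0.0555) or P14 replicate 2, Zfp36 without any 1 of 4 arrays (0.0648 without P1 replicate 3), and Klf4 with the mean of its probes (-0.27, adjusted p = 0.122).

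Markers of other cells moved with age as well, and their part in the chaperone differences was not tested. Over all genes tested, for comparison with the counts below, 10.4% were called higher in P1 and 9.62% lower. Summed over the brightest probe of each gene, background included, 11 cardiomyocyte markers reached intensities of 5339 to 11810 in P1 and 2667 to 2926 in P14, with Myh7 below the floor on every array and 6 of 10 tested genes called higher in P1. The sum of 11 granulocyte markers was 16040 to 22772 in P1 and 9129 to 12743 in P14, with Cxcr2 below the floor throughout, 9 of 10 tested genes higher and 1 lower. S100a8, named with Retnlg after their values were seen, is the largest part of that sum (9790 to 14401 in P1 and 3545 to 6801 in P14). The gene lower in P1 was Retnlg (-1.63, adjusted p = 0.00151). Which cells carried these transcripts was not tested. Of 9 tested proliferation genes 3 were higher in P1 and 0 lower, and the sum over 10 was 7204 to 8527 against 6150 to 6521. The sum of 8 macrophage and monocyte markers was 56093 to 58655 in P1 and 53959 to 58137 in P14. Lyz2 (21880 to 24902) and Cd14 (21661 to 25041), named after their values were seen, make up most of that sum. In this list 1 gene was called higher in P1, Csf1r (0.82, adjusted p = 0.00237), and 1 lower, Ptprc (-0.42, adjusted p = 0.0255). Of the other lists 2 of 7 fibroblast, 0 of 8 endothelial, 0 of 3 erythroid and 1 of 3 lymphocyte genes were called higher in P1 and 0 lower, and 1 endothelial and 0 erythroid genes had an unadjusted limma p under 0.05. P14 replicate 3, the array highest in Hspa1a and Hspa1b, had a second principal component of -15.4. The values were 8.18 and 5.62 on P14 replicates 1 and 2 and -2.1 to 2.91 in P1. Its erythroid sum was 31502, against 15269 and 19631 on P14 replicates 1 and 2 and 21817 to 29070 in P1.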

How the data were processed

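The measurements are probe intensities on Illumina mouse arrays. The intensities the authors deposited are linear. Their sorted values agreed across the 6 arrays to within 0.462, as quantile normalization gives, and background remains in them (lowest value 96.7), which understates folds. The normalization software is not recorded in these sources. Groups were read from the sample titles. A scanner table of 24 columns named by chip position was left out, as no column could be assigned to a sample.

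Of 45281 probes, 34885 carried 1 gene symbol, 18 several and 10378 none. The floor of 126 is 3 SD above the mode of log2 intensity, and 19107 probes passed it. A model with age as its term was fitted in limma 3.58.1 (lmFit, eBayes; R 4.3.3) and tested on simulated data. Promoters are RefSeq sequence of GRCm38.p6.

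Members, classes and gene lists were chosen with earlier results of these data known. All members are named. For each other list, the text names at most 4 called genes, taken by size of change, or the 2 brightest if 0 were called. Settings varied were the dim-probe filter, averaging of probes, the eBayes options, array weights, a replicate block, normexp (offset 50), cyclic loess and each array left out. The number of arrays limits precision.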

Additional observations from a re-analysis of the deposited data

How the results depend on the processing

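The 3 member calls were kept under the 7 alternatives with all arrays, and 2 or 3 were made when single arrays were left out. With normexp background correction Hsp90aa1 was 1.88-fold, Hsph1 1.82-fold and Dnajb1 1.33-fold lower in P1. The sign turned for Hsp90aa1 on its second probe (0.063), for Hspd1 on its second probe (-0.59) and with the mean of its probes (-0.19), and for Hspe1 with array weights (-0.052), with cyclic loess (-0.0021) and without single arrays (-0.11 to 0.081). The cause was not tested. The shift between inducible and constitutive classes was -0.51 to -0.63 under the planned settings with all arrays and -0.75 to -0.49 without single arrays. In that last range Dnaja1 fell below the filter when replicate 3 of P1 or replicate 2 or 3 of P14 was left out, which leaves Hspa8 alone in the class, so both of its ends compare with -0.68. Chosen after seeing the data, the range was -0.67 to -0.42 with both genes held fixed and -0.79 to -0.49 with Hspa8 alone throughout. Calls over all genes numbered 1038 to 1813 and network calls 5 to 13 without single arrays. Network calls were 11 with no filter, 13 with the mean of probes and 20 with the replicate block. Those 20 included all 16. Deviations of same-numbered arrays of the 2 ages were correlated at 0.16, 0.0716 and 0.13, and those of unlike-numbered arrays at -0.151 to -0.0158. The deviations were from each gene's mean within an age, so positive values for same-numbered arrays bring negative ones for the others. The 2 sets of values are thus not separate observations. The labels do not state that the numbers pair arrays, so the main fit did not pair them. Whether the numbers pair arrays was not tested. The block gave 2182 calls over all genes in place of 2105 and left the 3 member calls, and Hspb1 passed with it (adjusted p = 0.0423). Dnaja1 gave values without 3 of the 6 arrays, its probe being under the filter otherwise. Signal over background limits Dnaja1.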
